A study of Mus musculus with 39 samples.

Results

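The mitochondrial genome of the mouse encodes protein, ribosomal RNA and transfer RNA genes, and its genes carry the prefix mt- in the count table. All 35 symbols of the table that begin with mt- were taken, of 55011 symbols in all. They comprised 13 protein genes and 22 tRNA genes. The 2 ribosomal RNA genes, mt-Rnr1 and mt-Rnr2, were not analysed here. The question put to the data was what share of all counts these genes took in each group, how that share was divided among them, and which of them differed between the groups.

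The 39 mouse libraries of polyA RNA fell into 14 groups. Vg6+ γδ T cells of untreated wild-type mice came from the colonic lamina propria (3 libraries), and Vg6+ cells of wild-type mice came from hindlimb muscle 3 days after injury with cardiotoxin, a venom toxin that destroys myofibres (3 libraries). Whole tibialis anterior muscle was taken 1, 3, 7 and 14 days after cardiotoxin from wild-type (WT) and Tcrd-DTR mice, all of which had also received intraperitoneal diphtheria toxin (3 libraries a group, and 2 for Tcrd-DTR mice at day 7). Tcrd-DTR mice carry the diphtheria toxin receptor, under Tcrd as their name says, and per the design text their γδ T cells were depleted. Tibialis anterior was also taken at day 7 from cardiotoxin-injured wild-type mice given PBS or recombinant IL-17A (rIL-17A) by intraperitoneal and intramuscular injection (2 libraries each). Satellite cells, the muscle stem cells, were sorted at day 1 from cardiotoxin-injured WT and Tcrd-DTR mice given diphtheria toxin (3 libraries each). Sorted libraries were made from 1000 cells and muscle libraries from 2 ng of RNA, and the labels describe the replicates as independent biological replicates without giving age, sex or pooling.

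Libraries held 2372139 to 10974862 counts. Markers of the labelled cell types were counted in their libraries. The T cell gene Cd3e was at 827 to 1229 CPM (a gene's counts scaled to a fixed library total) in the Vg6+ libraries. Trdc, a γδ receptor gene, was at 901 to 1216 CPM there. Pax7 was at 23.9 to 37.1 CPM in the satellite cell libraries, and Acta1, the skeletal muscle actin, at 10735 to 102320 CPM in whole muscle. The satellite cell libraries also held summed fibroblast markers (5 genes) at 4935 to 8162 CPM. These were above the summed satellite cell markers (6 genes) in each library, at 4037 to 5924 CPM. The source of the fibroblast marker counts was not tested. A pair of satellite cell libraries stood apart: WT replicate 3 held 0.257% mitochondrial counts against 0.731% to 0.858% in the other 5, and Tcrd-DTR replicate 1 held Acta1 at 1636 CPM against 14.1 to 21.2 CPM in the other 5.

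Mitochondrial DNA is transcribed from both strands as long precursors, and tRNAs lying between the protein and rRNA genes are cut out of them to release the mature RNAs. The protein genes encode core subunits of the respiratory chain and ATP synthase: 7 subunits of complex I (the mt-Nd genes), cytochrome b of complex III (mt-Cytb), 3 subunits of complex IV (the mt-Co genes) and 2 of ATP synthase (the mt-Atp genes). All other subunits come from nuclear genes. Skeletal muscle is rich in mitochondria, and injured muscle rebuilds them as new myofibres form.

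Counts of the protein genes were divided very unevenly. In every library 7 genes (mt-Nd1, mt-Nd2, mt-Nd4, mt-Nd5, mt-Nd6, mt-Co1 and mt-Cytb) held at least 99.125% of the mitochondrial counts, and the other 6 (mt-Nd3, mt-Nd4l, mt-Co2, mt-Co3, mt-Atp6 and mt-Atp8) together held at most 0.3357%. The 6 scarce genes summed to 8096 counts over all libraries, of 8147764 mitochondrial counts. The 6 scarce genes lie in 1 stretch of the mitochondrial genome, and nearly all of the sequence of 5 of them recurs elsewhere, mt-Atp8 being the exception. Each transcript of the GENCODE annotation of the mouse (assembly GRCm38, the mm10 build) was cut into all windows of 50 bases, and windows found in both a mitochondrial and another transcript were marked. Of the windows, 100% of mt-Co2, 99.9% of mt-Co3, 99.5% of mt-Atp6, 98.8% of mt-Nd4l and 98.0% of mt-Nd3 were shared. Shares were 51.1% for mt-Co1, 62.2% for mt-Nd4, 8.19% for mt-Nd2 and 7.61% for mt-Nd5, and 0% for mt-Nd1, mt-Nd6 and mt-Cytb.

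For mt-Co1, mt-Nd4 and the 5 scarce genes, the partners with the most windows were 7 unprocessed pseudogenes on chromosome 1 (chr1:24611535-24616197). They lie in a row, in the same order as the mitochondrial genes but on the minus strand. They were Gm29216 (mt-Co1), Gm28661 (mt-Co2), Gm10925 (mt-Atp6), Gm28437 (mt-Co3), Gm28438 (mt-Nd3), Gm10222 (mt-Nd4l) and Gm28439 (mt-Nd4). Pseudogenes on chromosome 2 also shared windows with mt-Co1 (Gm13340, 411 windows, beside 430 for Gm29216) and mt-Co2 (Gm13341, 224 windows). The shared windows of mt-Nd2 (Gm13339, chromosome 2) and mt-Nd5 (Gm4076 and Gm11407, chromosomes 13 and 4) had no partner on chromosome 1. The gap between mt-Co2 and mt-Atp6, where mt-Atp8 begins, was 230 bases on the mitochondrial genome and 233 bases between their pseudogenes on chromosome 1. No annotated pseudogene covers that gap, so the 0% found for mt-Atp8 says only that no other annotated transcript holds its windows. The shared sequence of the mt-Co1 and mt-Nd4 transcripts marks the borders of the stretch, at chrM:6394 and chrM:11042. Both borders are printed because the barely counted genes lie between them. Capitals mark bases that a pseudogene transcript also holds, on the plus strand.
mt-Co1, inside its coding sequence (chrM:6334-6453): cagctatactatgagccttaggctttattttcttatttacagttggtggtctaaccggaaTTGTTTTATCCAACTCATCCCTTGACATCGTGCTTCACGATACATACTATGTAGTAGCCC
mt-Nd4, inside its coding sequence (chrM:10983-11102): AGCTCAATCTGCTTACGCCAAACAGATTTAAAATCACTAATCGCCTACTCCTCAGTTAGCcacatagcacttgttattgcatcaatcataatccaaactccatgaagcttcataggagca

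Between these borders lie 11 of the 35 genes (6 protein and 5 tRNA genes), which held 0.102% of all mitochondrial counts. The 7 pseudogenes on chromosome 1 held 9809 counts over all libraries. Set beside their copies on chromosome 1, the scarce genes went both ways. mt-Co2 had 2014 counts and its copy 1504, and mt-Nd3 had 1766 and its copy 106, whereas the copy had more for mt-Atp6 (2482 against 3035), mt-Co3 (1531 against 1739) and mt-Nd4l (122 against 208). The abundant genes stood far above theirs, with 436892 counts for mt-Nd4 against 418 for Gm28439 and 1834208 for mt-Co1 against 2799 for Gm29216. Per length, the 5 scarce genes with shared windows and mt-Atp8 had medians of 1.83 to 10.4 CPM per kb over the 39 libraries, and the 7 abundant genes 246 to 9311 CPM per kb. How reads with several matching places were handled is not given in the sources used here, and its part in the low counts was not tested. Values of the 6 scarce genes are therefore uncertain, and those of mt-Co1 and mt-Nd4 may rest on part of the gene only.

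**Figure D1:**
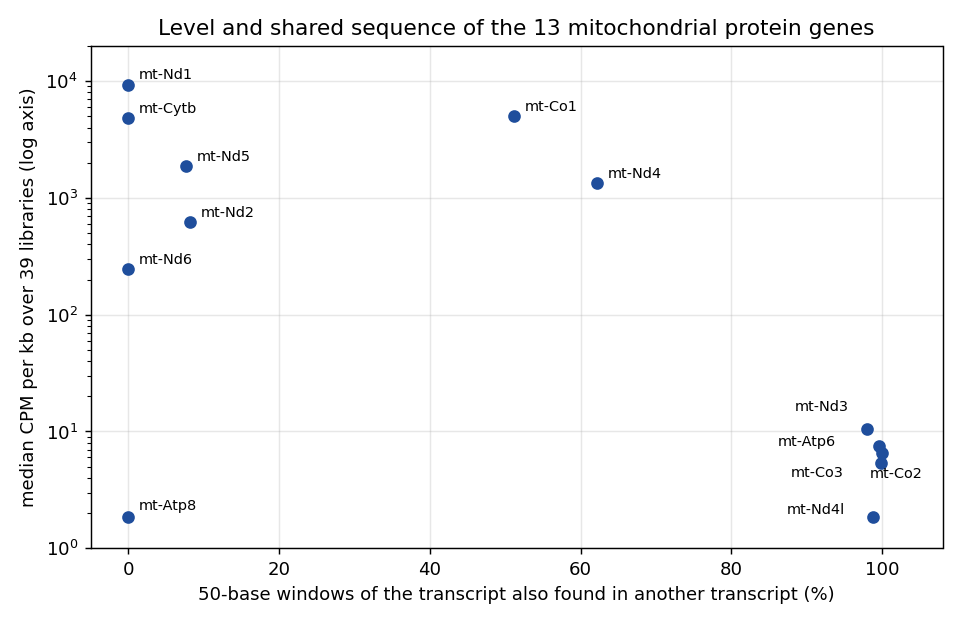
Each point is 1 of the 13 mitochondrial protein genes, placed by the percentage of its 50-base windows that recur in another annotated transcript and by its median level over 39 libraries (CPM per kb, log axis). The 5 genes at 98.0% or more sit at 1.83 to 10.4 CPM per kb, as does mt-Atp8, while the 7 genes with smaller shared parts sit at 246 or above.

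Per full gene length, mt-Nd1 (chrM:2751-3707) was the most abundant, with a median of 9311 CPM per kb. It was above mt-Co1 in 37 of 39 libraries. The next pair, mt-Co1 (chrM:5328-6872, 5031 CPM per kb) and mt-Cytb (chrM:14145-15288, 4815 CPM per kb), could not be ordered: mt-Co1 was higher in 20 of 39 libraries. They were followed by mt-Nd5 (chrM:11742-13565) at 1865 CPM per kb, mt-Nd4 (chrM:10167-11544) at 1337, mt-Nd2 (chrM:3914-4951) at 621 and mt-Nd6 (chrM:13552-14070, the single protein gene on the minus strand) at 246. The order of mt-Nd5 over mt-Nd4 held in 33 libraries, and that of mt-Cytb over mt-Nd5 in all 39. The order depends on the length used. Per kb of bases outside shared windows, the median of mt-Co1 was 20035 CPM, above mt-Nd1 (9311) and mt-Cytb (4815). On that scale mt-Nd4 (3669) was above mt-Nd5 (2463). Which length suits the counting was not tested.

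The last bases of mt-Nd5 and mt-Nd6 overlap on opposite strands. The overlap is shown in capitals because the strand setting of the counting is not given in the sources used here, so reads within it could belong to either gene.
mt-Nd5, 3′ end on the plus strand (chrM:13522-13565): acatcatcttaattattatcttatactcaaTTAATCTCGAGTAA

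The 22 tRNA genes together held 0.0599% to 0.571% of the mitochondrial counts in a library, and mt-Td and mt-Tk had 0 counts in every library. As the libraries were of polyA RNA, counts on tRNA genes cannot be read as levels of mature tRNAs. Whether they came from tRNAs, from precursors or from neighbouring genes was not tested. The leading tRNA gene was mt-Tl1, which encodes a leucine tRNA, with a median of 328 CPM per kb and 40 to 334 counts in each library. It fills the space between the large ribosomal RNA gene and mt-Nd1 without a base to spare, as shown with mt-Tl1 in capitals.
mt-Tl1 between mt-Rnr2 and mt-Nd1, plus strand (chrM:2656-2770): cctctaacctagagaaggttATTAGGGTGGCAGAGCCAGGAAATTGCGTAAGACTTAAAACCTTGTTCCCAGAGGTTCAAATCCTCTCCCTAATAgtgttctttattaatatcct
A read that crosses either edge of mt-Tl1 thus touches a neighbouring gene, and how such reads were assigned is not given in the sources used here. Behind mt-Tl1 came mt-Tq (chrM:3772-3842, minus strand) at 166 CPM per kb, then mt-Tp (chrM:15356-15422, minus strand) at 82.1 and mt-Tm (chrM:3845-3913) at 74.6. The last pair could not be ordered, mt-Tp being higher in 15 of 39 libraries. Antisense reads of minus-strand tRNA genes cannot be told apart from their own without the strand.

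All mitochondrially encoded genes together took 0.257% to 9.24% of the counts of a library. Sorted cells were lowest: 1.29% ± 0.0905 (SD, n = 3) in Vg6+ cells of the colon, 0.781% ± 0.106 (SD, n = 3) in Vg6+ cells of muscle, 0.635% ± 0.329 (SD, n = 3) in WT satellite cells and 0.787% ± 0.0503 (SD, n = 3) in Tcrd-DTR satellite cells. Whole muscle of the time course ranged from 1.59% to 8.21%. Its 5 day 7 libraries, at 6.63% to 8.21%, lay above all 18 libraries of days 1, 3 and 14, at 1.59% to 4.78%.

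**Figure D2:**
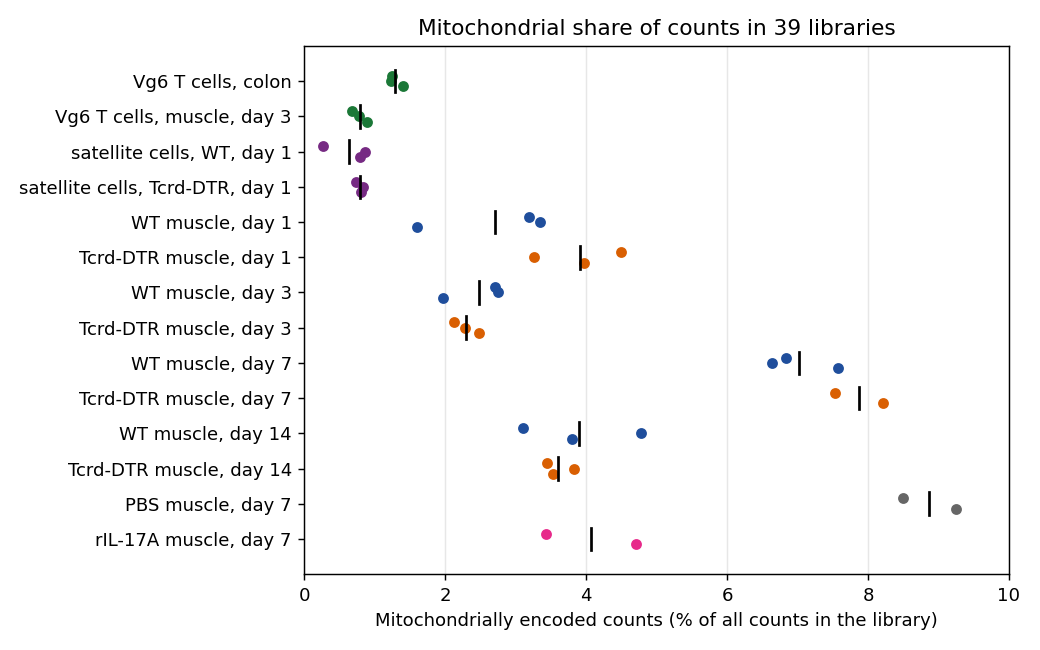
Each point is 1 of 39 libraries, placed by the mitochondrially encoded counts as a percentage of all its counts, and black bars are group means. Day 7 muscle of the time course (6.63% to 8.21%) and PBS muscle (8.50% and 9.24%) sit above all other libraries, and WT satellite cell replicate 3 (0.257%) is the lowest.

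In wild-type muscle the share was 1.59%, 3.35% and 3.19% at day 1, then 1.96%, 2.75% and 2.71% at day 3. It was 7.57%, 6.63% and 6.83% at day 7, and 3.79%, 4.78% and 3.11% at day 14. A permutation test of the between-day sum of squares with 100000 resamples gave p = 0.00299 for WT. In Tcrd-DTR muscle day 1 gave 3.97%, 3.25% and 4.49%, day 3 gave 2.47%, 2.27% and 2.12%, day 7 gave 8.21% and 7.54%, and day 14 gave 3.52%, 3.82% and 3.44% (same permutation test, p = 0.00037). Day 7 was thus the highest in both genotypes. Days 1 and 3 overlapped in WT and did not overlap in Tcrd-DTR muscle, and the courses of the share were not compared by a test. Fewer or more cells of a type and less or more RNA per cell cannot be told apart in whole muscle. The day 7 libraries were also the deepest, at 7031474 to 10974862 counts against 2372139 to 6599665 on the other days. The summed macrophage markers (7 genes) were at 948 to 2434 CPM at day 1 and at 7711 to 13816 CPM at day 3. They were at 409 to 1578 CPM at day 7 and at 123 to 284 CPM at day 14. The summed myofibre markers (17 genes) were at 112509 to 203230 CPM at day 1 and at 33951 to 112192 CPM at day 3. They were at 217478 to 244095 CPM at day 7 and higher still at day 14, at 263259 to 284306 CPM. The part of depth and of cell makeup in the day 7 rise was not tested.

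Genes were tested with edgeR's quasi-likelihood F-test, in 1 fit of the 23 time course libraries, with Benjamini-Hochberg adjustment over all 18264 genes that passed the filter on low counts. Of the members 22 passed, 11 protein and 11 tRNA genes (mt-Atp8 and mt-Nd4l did not). Over the 4 days 18 of 22 changed in WT muscle, where 53.7% of all genes did, and 19 of 22 in Tcrd-DTR muscle, where 56.2% did. All 11 tested protein genes were among them in both genotypes. No member passed in the interaction of genotype with day, whose background was 0.608%, with 4 of 22 members at an unadjusted p under 0.05.

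From day 3 to day 7 in WT muscle, 15 of 22 members rose and 0 fell, against 17.9% and 19% of all genes. All 11 tested protein genes rose. mt-Nd1, a core subunit of complex I, was at 6249, 8910 and 7532 CPM at day 3 and at 36355, 30485 and 33494 CPM at day 7. The groups were far apart, and the log2 change was 2.95 ± 0.30 (SE; adjusted p = 8.23e-10, edgeR). The log2 changes from edgeR rest on TMM scaling, which the CPM do not have. The median change of the 22 tested members was 2.00 with TMM and 1.19 by library size alone. The median of all genes was 0.04 and -0.74. mt-Nd6 changed more, by 3.49 ± 0.31 on the log2 scale (SE), with 77.0, 157 and 117 CPM at day 3 and 760, 815 and 673 CPM at day 7. mt-Cytb rose by 2.27, mt-Nd4 by 2.10, mt-Nd2 by 2.09 and mt-Co1 by 1.87 (log2). Among the scarce genes mt-Atp6 rose by 3.93, mt-Co2 by 3.69, mt-Nd3 by 3.45 and mt-Co3 by 3.18. Of the tRNA genes mt-Tq rose by 2.09 and mt-Tp by 1.91, as did mt-Te and mt-Tt, a pair below the level set for naming tRNA genes and named here after their values were seen.

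mt-Nd5, another complex I subunit, stood apart among the protein genes. It was at 2840, 4163 and 3899 CPM at day 3 and at 2960, 3228 and 4767 CPM at day 7, and the groups overlapped on this scale. Its log2 change of 0.77 ± 0.28 (SE; adjusted p = 0.0281, edgeR) arose with TMM scaling. Scaled by library size alone it was 0.01, as the median of all genes was then at -0.74. mt-Nd5 also lost its call without WT day 3 replicate 1, WT day 7 replicate 2 or WT day 7 replicate 3, with changes of 0.59 to 0.87 over the libraries left out in turn. mt-Tl1 was at 29.7, 31.2 and 24.9 CPM at day 3 and at 13.7, 13.9 and 22.4 CPM at day 7. It had a log2 change of -0.01 with TMM scaling, and with library size alone it and mt-Tm passed as lower.

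From day 7 to day 14, 10 of 22 members fell and 3 rose, where 13.2% of all genes fell and 4.14% rose. Those that fell were 9 protein genes and mt-Tp. mt-Nd1 dropped to 9956, 12581 and 7751 CPM, a log2 change of -1.86 ± 0.29 (SE; adjusted p = 2.28e-05, edgeR). mt-Nd6 fell by 2.19, mt-Nd2 by 1.40, mt-Cytb by 1.07 and mt-Nd4 by 0.72, and mt-Atp6 fell by 2.59 (log2). mt-Nd4 did not pass with DESeq2 (log2 change -0.53, adjusted p = 0.0961) nor with DESeq2's size factors in edgeR, and of the 6 libraries left out in turn it kept its call only without WT day 7 replicate 3. The call of mt-Cytb was lost without WT day 7 replicate 1 or WT day 14 replicate 3. mt-Co1, which encodes the catalytic subunit of complex IV, did not pass (-0.36 ± 0.31, adjusted p = 0.473, edgeR), its CPM at day 14 running from 8569 to 14866 and so across the 12744 to 13487 CPM of day 7.

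The 3 members that rose were mt-Nd5, mt-Tl1 and mt-Tm. mt-Nd5 reached 6901, 8352 and 5680 CPM at day 14, above every day 7 library, with a log2 change of 0.84 ± 0.28 (SE; adjusted p = 0.035, edgeR). This call was lost when WT day 7 replicate 1 or 2, or WT day 14 replicate 1 or 2, was left out, with changes of 0.70 to 1.03. mt-Tl1 was at 37.3, 49.9 and 36.4 CPM at day 14, above its 13.7 to 22.4 CPM of day 7 (log2 change 1.21, adjusted p = 0.00162, edgeR). mt-Tm moved from 3.01 to 5.15 CPM to 9.26 to 13.1 CPM (log2 change 1.31, adjusted p = 0.0127, edgeR), on few counts, and lost its call without WT day 7 replicate 2 or WT day 14 replicate 2. The fall of mt-Tp was not called without WT day 7 replicate 1, WT day 14 replicate 1 or WT day 14 replicate 3.

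**Figure D3:**
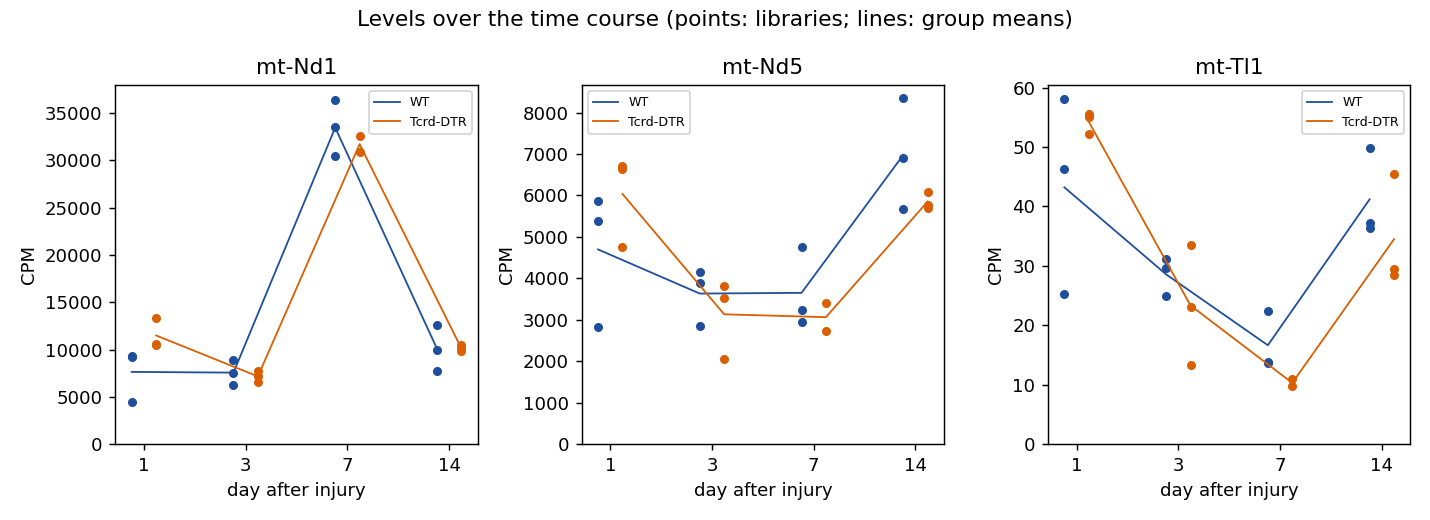
Points are libraries of whole muscle at days 1, 3, 7 and 14 after injury (CPM), and lines join group means of WT (blue) and Tcrd-DTR (orange). mt-Nd1 peaks at day 7 in both genotypes (30485 to 36355 CPM), whereas mt-Nd5 at day 7 (2729 to 4767 CPM) lies within its range of the other days (2062 to 8352 CPM), and mt-Tl1 (9.75 to 22.4 CPM) overlaps the lower end of its own (13.3 to 58.0 CPM).

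From day 1 to day 3, mt-Tl1 alone of the 22 tested members passed the test, and it fell by 0.98 ± 0.27 on the log2 scale (SE; adjusted p = 0.00749, edgeR), where 9.36% of all genes fell and 9.58% rose. The count was 0 without WT day 1 replicate 2 and 0 by library size alone, 2 without WT day 1 replicate 1 and 3 without WT day 3 replicate 3. DESeq2 called 4 members lower, adding mt-Nd4, mt-Nd5 and mt-Te. Scaling by library size alone put the median of all genes at 0.40 in this comparison.

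The makeup of the mitochondrial counts differed at day 7. Shares of 1 total are tied to each other, so a gene that rises less than the rest loses share without falling in level, as mt-Nd5 did from day 3 to day 7. mt-Nd5 held 9.71% to 18.3% (median 16.1%) of the mitochondrial counts in the 18 time course libraries of days 1, 3 and 14. In the 5 libraries of day 7 it held 3.62% to 6.98% (median 4.14%). No day 7 library reached the lowest of the others. Of the 35 genes, 5 had a lower share in every day 7 library than in any of the others. Beside mt-Nd5 they were mt-Co1 (17.8% to 20.6% at day 7, 21.4% to 31.1% on the other days), mt-Tl1 (0.0129% to 0.0328%, and 0.0628% to 0.173%), mt-Tm (0.0029% to 0.0075%, and 0.0232% to 0.0552%) and mt-Tw, a tRNA gene below the level set for naming. Another 5 were higher in every day 7 library: mt-Nd1 (39.6% to 49.0%, and 24.9% to 34.0%), mt-Nd6 (0.578% to 1.23%, and 0.243% to 0.569%) and the scarce mt-Atp6, mt-Co2 and mt-Nd3. All tRNA genes together held 0.0988% to 0.153% at day 7 and 0.221% to 0.428% on the other days. These shares were looked at after the gene values were known and carry no test.

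**Figure D4:**
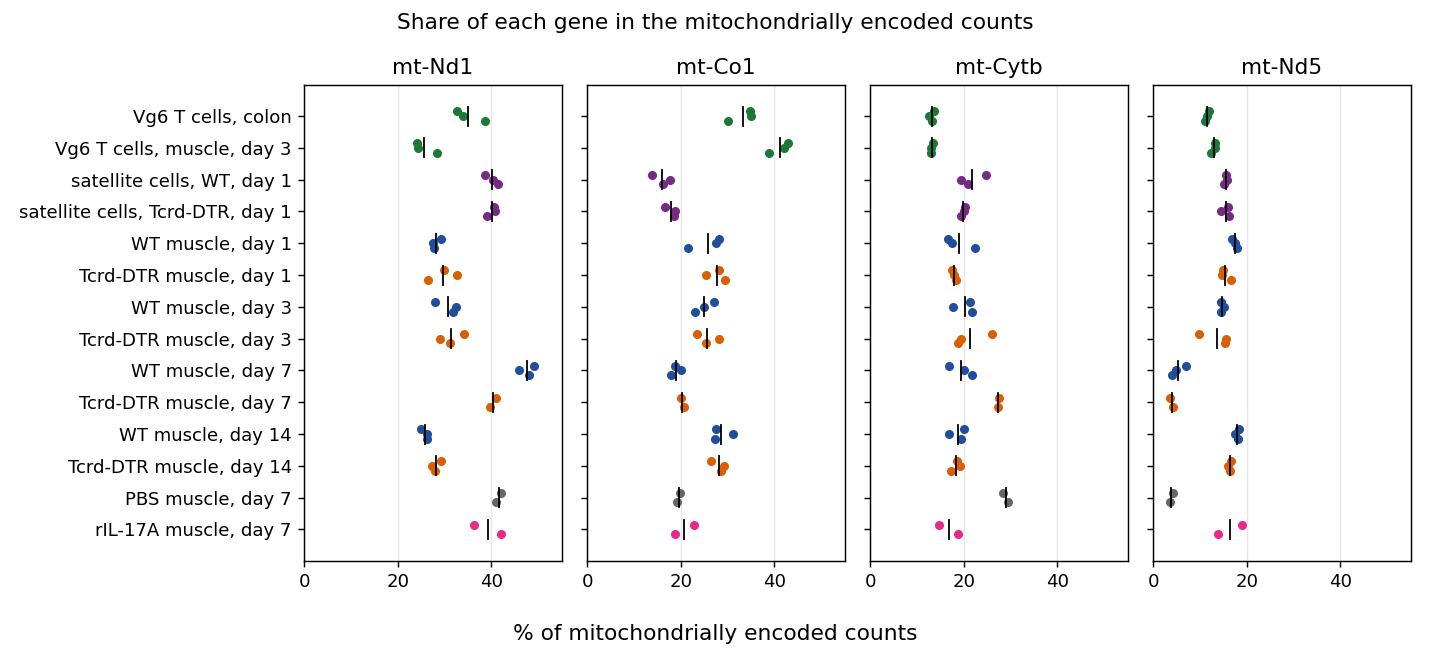
Each panel gives 1 gene's percentage of the mitochondrially encoded counts in each of 39 libraries (points) with group means (bars). mt-Nd5 is below 7% in the day 7 muscle libraries of the time course and of the PBS group, and at 9.71% or more in all other libraries, rIL-17A muscle included.

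Nuclear genes of the same complexes rose from day 3 to day 7 and fell from day 7 to day 14, as most mitochondrial protein genes did. From day 1 to day 3, where 0 of 11 mitochondrial protein genes passed (median log2 change -0.40), 30 of 78 nuclear respiratory chain and ATP synthase genes fell and 2 rose (median -0.52). From day 3 to day 7, 75 of the 78 rose and 1 fell, with a median log2 change of 2.16 beside 0.04 for all genes tested. Examples were Ndufc1 of complex I (2.77) and Uqcrb of complex III (2.63). From day 7 to day 14, 48 of 78 fell and 0 rose (median -0.71, all genes -0.03), Cox6a1 of complex IV among them (-1.39). The mitochondrial ribosome list, which translates the 13 proteins, had 69 of 78 genes rising and then 43 of 78 falling. Of 13 tested genes of mitochondrial transcription and replication, 6 rose from day 3 to day 7, among them Tfam, which packages and activates mitochondrial DNA (1.29), and Tefm, an elongation factor (1.57). Polrmt, the mitochondrial RNA polymerase, was at 0.19 ± 0.29 (SE; adjusted p = 0.66, edgeR). Of 18 genes of mitochondrial RNA processing and stability 9 rose, including Grsf1 (2.15), which binds RNA in mitochondrial granules, and Lrpprc (1.00), which stabilises mitochondrial mRNAs. Regulators of mitochondrial biogenesis went both ways. Pprc1 (-2.42) and Nrf1 (-1.17) fell, and Esrra (1.38), Ppargc1b (1.08) and Ppargc1a (0.95) rose.

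Counts of the 13 protein genes, set against the summed counts of the nuclear chain genes, gave ratios of 1.00 to 1.24 at day 7. The ratio was 0.629 to 0.921 in WT muscle at day 14, 0.873 to 1.12 at day 3, and 0.463, 1.12 and 1.15 at day 1. In Tcrd-DTR muscle it was 0.698 to 0.791 at day 14, 0.759 to 1.03 at day 3, and 1.09, 1.10 and 1.32 at day 1, the last above every day 7 library. The low value of 0.463 belonged to WT day 1 replicate 1, the library with the lowest mitochondrial share of the time course.

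Muscle of Tcrd-DTR mice, which per the labels differs from WT muscle in the depletion of γδ T cells, was compared with WT muscle on each day. No member passed on any of the 4 days, by edgeR's quasi-likelihood F-test with Benjamini-Hochberg adjustment. Of all genes, 0% rose and 0% fell at day 1 and at day 3, 0.641% rose and 1.37% fell at day 7, and 0.0383% rose and 0.0383% fell at day 14. At an unadjusted p under 0.05 stood 2 of 22 members at day 1, 2 at day 3, 3 at day 7 and 0 at day 14. The members' median log2 difference was 0.46 at day 1, where 21 of 22 were above 0, and the median of all genes was 0.01. In the same comparison 505 of 540 tested olfactory and vomeronasal receptor genes were above 0 (median 1.25) and 0 of 7 macrophage markers were (median -0.71), none of either list passing the test. Their part in the members' difference was not tested. At days 3, 7 and 14 the members' median was -0.14, 0.12 and -0.16.

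The genotypes overlapped in their mitochondrial share on all 4 days. At day 1 it was 3.91% ± 0.621 (SD, n = 3) in Tcrd-DTR and 2.71% ± 0.969 (SD, n = 3) in WT muscle, with overlapping groups (2-sided exact permutation test, p = 0.2). The difference of 1.20 percentage points became 0.639 without WT replicate 1, whose share of 1.59% was the lowest of the 6 libraries. The exact p was 0.6 at day 3, 0.4 at day 7 and 0.8 at day 14. With 3 libraries against 3 the smallest p of this test is 0.1, and with 2 against 3 it is 0.2, so no comparison here could reach 0.05.

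At day 7 mt-Cytb and mt-Tv were the members nearest to the threshold, in opposite directions. mt-Tv, a valine tRNA gene, was at 1.47 and 1.18 CPM in Tcrd-DTR and 2.56, 2.90 and 9.51 CPM in WT muscle, on 13 to 72 counts (log2 difference -1.60 ± 0.55, SE; adjusted p = 0.101, edgeR). mt-Cytb was at 22328 and 20793 CPM in Tcrd-DTR and 16404, 13224 and 11467 CPM in WT muscle. The groups did not overlap in either gene, which adds no support, as both were picked for their small p on the same libraries. For mt-Cytb the log2 difference was 0.87 ± 0.30 (SE; adjusted p = 0.102, edgeR). This gene passed with DESeq2 and with no filter on low counts. mt-Cytb held 27.2% and 27.6% of the mitochondrial counts in Tcrd-DTR muscle and 16.8% to 21.7% in WT muscle on that day. mt-Nd1 was the reverse, with 39.6% and 40.9% against 46.0% to 49.0%, and mt-Nd6 held 0.578% and 0.629% against 0.984% to 1.23%. These shares carry no test. Day 7 libraries of the genotypes also differed in the summed counts of olfactory and vomeronasal receptor genes, at 90.2 and 144 CPM in Tcrd-DTR and 260 to 1335 CPM in WT. The part of this in the result was not tested.

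Recombinant IL-17A, the cytokine made by Vg6+ cells, was compared with PBS at day 7 to ask how it bears on regenerating muscle. Mitochondrially encoded genes took 9.24% and 8.50% of the counts in PBS muscle and 4.71% and 3.43% in rIL-17A muscle, a ratio of 0.458 between the means. The groups did not overlap, and the exact permutation test gave p = 0.333, the smallest that 2 libraries against 2 allow. By edgeR's quasi-likelihood F-test 13 of 19 tested members were lower and 2 were higher in rIL-17A muscle, where 16.1% of all 12896 genes tested were lower and 18.1% higher. The members' median log2 change was -1.32, beside 0.05 for all genes.

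Of the complex I genes, mt-Nd1 was at 37863 and 35793 CPM with PBS and at 19748 and 12452 CPM with rIL-17A (log2 change -1.32 ± 0.28, adjusted p = 0.00335, edgeR). mt-Nd2 fell by 1.18, mt-Nd4 by 1.14 and the scarce mt-Nd3 by 3.06 (log2). mt-Nd6 did not pass (-0.26 ± 0.22, adjusted p = 0.385, edgeR). mt-Cytb showed the widest gap of the abundant genes, from 27302 and 24090 CPM to 8824 and 5033 CPM, with a log2 change of -2.02 ± 0.30 (SE; adjusted p = 0.000438, edgeR). Of complex IV, mt-Co1 fell by 1.20, mt-Co2 by 2.03 and mt-Co3 by 1.58, and of ATP synthase mt-Atp6 fell by 1.55. The 4 tRNA genes that fell were mt-Ta, mt-Tc, mt-Tq and mt-Tp. The calls of mt-Ta and mt-Tc were lost without PBS replicate 1 or rIL-17A replicate 1, and those of mt-Tc and mt-Co3 without rIL-17A replicate 3. mt-Tq was at 31.4 and 14.4 CPM with PBS and at 5.28 and 3.96 CPM with rIL-17A.

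mt-Nd5 and mt-Tl1 were higher. mt-Nd5 was at 3194 and 3630 CPM with PBS and at 6544 and 6481 CPM with rIL-17A, a log2 change of 0.78 ± 0.22 (SE; adjusted p = 0.0147, edgeR). Its share of the mitochondrial counts was 3.45% and 4.27% with PBS and 13.9% and 18.9% with rIL-17A. Its call was lost without PBS replicate 1 or rIL-17A replicate 1, with changes of 0.65 to 0.93 over the libraries left out in turn. mt-Tl1 was at 9.41 and 6.29 CPM with PBS and at 22.2 and 38.98 CPM with rIL-17A (log2 change 1.79 ± 0.36, adjusted p = 0.00266, edgeR). mt-Cytb's share went from 29.5% and 28.4% to 18.7% and 14.7%, whereas mt-Nd1 and mt-Co1 kept overlapping shares. mt-Nd5 and mt-Tl1 were also among the members with a low share in day 7 muscle of the time course, which is another experiment with other libraries.

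Nuclear genes of the chain fell too, with 60 of 78 lower and 0 higher (median log2 change -0.79), Ndufs6 (-1.46) and Uqcr11 (-1.40) among them. The fall of the mitochondrial counts was wider than that of their sum, as the ratio of the 13 protein genes to the nuclear chain genes was 1.40 and 1.28 with PBS and 0.957 and 0.716 with rIL-17A. Of 78 mitochondrial ribosome genes 44 were lower and 3 higher. Genes of mitochondrial transcription went both ways: Polrmt (1.73) and the helicase Twnk (1.37) were higher, Tefm (-1.60) and the DNA-binding Ssbp1 (-1.32) lower, and Tfam was at -0.07 ± 0.25 (SE; adjusted p = 0.86, edgeR). Lrpprc (1.12) and Ppargc1b (2.01), a coactivator of mitochondrial biogenesis, were higher. Markers of several cell types moved in the same comparison. The summed myofibre markers were at 227052 and 243201 CPM with PBS and at 268230 and 263905 CPM with rIL-17A. Of 16 tested myofibre genes 6 were higher and 4 lower. Within that list Acta1 was at 97311 and 102320 CPM with PBS and at 56394 and 54515 CPM with rIL-17A, and Ckm, the muscle creatine kinase, at 12024 and 17800 CPM and at 27211 and 22983 CPM. The summed macrophage markers were at 1968 and 1440 CPM with PBS and at 573 and 705 CPM with rIL-17A, with 4 of 7 genes lower. Of the endothelial markers 3 of 4 were higher and 1 lower (sums of 186 and 174 CPM, and of 302 and 297 CPM), and both tested epithelial markers were lower (sums of 337 and 190 CPM, and of 57.3 and 67.7 CPM). PBS libraries held 7966647 and 6991254 counts and rIL-17A libraries 6438722 and 4797540. The part of cell makeup and depth in these results was not tested.

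**Figure D5:**
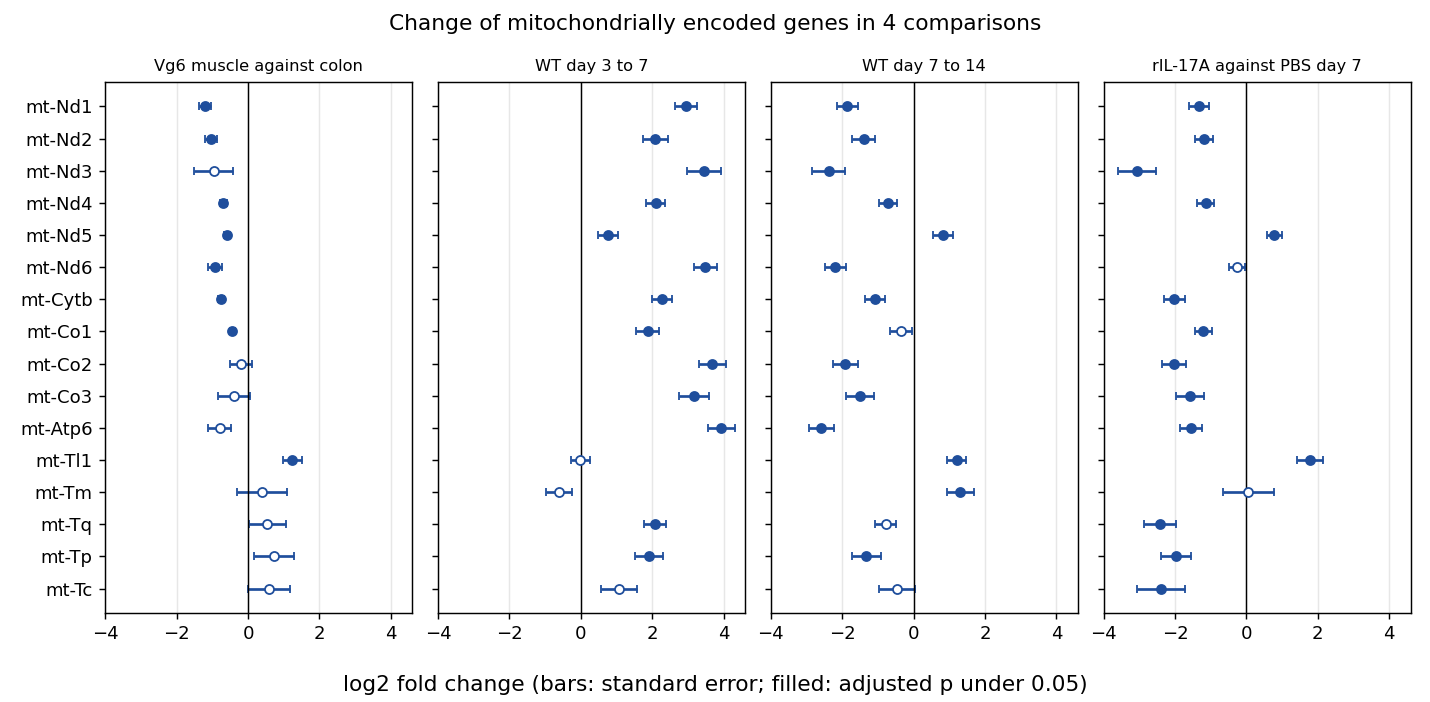
Points are log2 fold changes of 16 mitochondrial members with standard errors from edgeR, in 4 comparisons, filled where the adjusted p was under 0.05. Most members rise from day 3 to day 7 and fall from day 7 to day 14 and with rIL-17A, while mt-Nd5 and mt-Tl1 are to the right of 0 in the last pair of panels.

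Vg6+ cells of injured muscle were compared with Vg6+ cells of the colon, a tissue they inhabit without injury. The mitochondrial share was 0.893%, 0.770% and 0.681% in muscle cells and 1.39%, 1.23% and 1.24% in colon cells, without overlap (2-sided exact permutation test, p = 0.1, the smallest possible here). Of 16 tested members 7 were lower in muscle cells and 1 was higher, where 12.2% of all 11907 genes tested were lower and 12.3% higher. The 7 were the abundant protein genes. mt-Nd1 was at 2524, 1869 and 1637 CPM in muscle cells and at 5364, 4186 and 4047 CPM in colon cells (log2 difference -1.21 ± 0.17, adjusted p = 0.00164, edgeR). mt-Nd2 was lower by -1.03, mt-Nd6 by -0.93, mt-Cytb by -0.76, mt-Nd4 by -0.70, mt-Nd5 by -0.59 and mt-Co1 by -0.44 (log2). In none of these 7 genes did the groups overlap. This adds no support, as the genes were picked by the test on the same libraries.

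The member that was higher was mt-Tl1, at 31.5, 22.3 and 20.8 CPM in muscle cells and 10.8, 8.18 and 12.1 CPM in colon cells (log2 difference 1.24 ± 0.26, adjusted p = 0.0028, edgeR). All tRNA genes together held 0.540% to 0.571% of the mitochondrial counts in muscle cells and 0.151% to 0.199% in colon cells. mt-Co1's share was 38.9% to 42.8% in muscle cells and 30.0% to 35.0% in colon cells, and mt-Nd1's 24.0% to 28.3% against 32.7% to 38.5%. mt-Cytb's share was almost the same in both, at 13.1% ± 0.157 and 13.1% ± 0.507 (SD, n = 3).

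Here the nuclear chain genes did not follow the mitochondrial ones. Of 75 tested 10 were higher and 2 lower in muscle cells, where 12.3% of all genes were higher and 12.2% lower. Their median log2 difference was 0.12 beside -0.01 for all genes, and Ndufa8 of complex I was at 0.59. The ratio of the 13 protein genes to the nuclear chain genes was 0.574 to 0.711 in muscle cells and 1.08 to 1.27 in colon cells. Of the genes of mitochondrial RNA processing and stability, Slirp, the partner of Lrpprc, was lower (-0.84) and Fastkd3 higher (1.54), with Lrpprc itself at -0.02. Polrmt was at 0.02 and Tfam at 0.33, and neither passed. Markers of other cell types differed as well. Summed B cell markers were at 117 to 158 CPM in muscle cells and 44.6 to 55.8 CPM in colon cells, and endothelial markers at 148 to 160 CPM and 79.7 to 81.7 CPM, the 1 tested gene of each list being higher. The summed myofibre markers were at 15.7 to 42.8 CPM in muscle cells and 68.6 to 120 CPM in colon cells, with 1 of 4 tested genes lower, and Acta1 was at 0 to 0.739 CPM in these libraries. Whether these marker counts came from such cells, and their part in the members' differences, was not tested.

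Satellite cells of Tcrd-DTR and WT mice showed no member past the threshold, 0 of 11 tested, where 0% of all 12081 genes rose or fell by edgeR's quasi-likelihood F-test. No member had an unadjusted p under 0.05, and DESeq2 called 0 members as well. All 11 lay above 0, with a median log2 difference of 0.40 and all genes at 0.02. The share was 0.800%, 0.829% and 0.731% in Tcrd-DTR cells and 0.790%, 0.858% and 0.257% in WT cells (2-sided exact permutation test, p = 0.8, where 0.1 is the smallest possible). Without WT replicate 3 the difference of the means changed sign, from 0.152 to -0.0371 percentage points. That library held mt-Nd1 at 994 CPM against 2969 to 3452 CPM in the other 5. It was at 18449 CPM of nuclear chain genes, above the 15060 to 16847 CPM of the others, and its ratio of mitochondrial to nuclear chain counts was 0.139 against 0.467 to 0.527.

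Within the low total, mt-Nd1 held 38.7% to 41.4% and mt-Co1 13.8% to 18.7% of the mitochondrial counts in the 6 satellite cell libraries, WT replicate 3 included. Both ranges overlapped those of day 7 muscle (39.6% to 49.0% and 17.8% to 20.6%). mt-Nd5 held 14.4% to 16.1%, close to whole muscle of the same day (14.6% to 17.8%). mt-Tl1 held 0.249% to 0.324%, overlapping the range of muscle Vg6+ cells (0.290% to 0.352%) and above all whole muscle libraries of the time course (0.0129% to 0.173%). Sorted cells and muscle were prepared differently, so these levels are set side by side without a test.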

How the data were processed

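Raw counts per gene symbol were deposited by the authors for 39 libraries of polyA RNA. Per the submitters' processing notes, the tools included STAR 2.7.3a and featureCounts (with Subread 2.0.0), and the build was mm10. Sources used here do not give the annotation, the strand setting or the treatment of reads with several matches. Each of the 39 columns matched 1 library's labels, and 0 symbols were blank.

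CPM and percentages were taken of the column total. Differences were tested with edgeR 4.0.16 under R 4.3.3: a robust quasi-likelihood F-test after TMM scaling, on genes kept by filterByExpr (count minimum 10, total minimum 15), called at a Benjamini-Hochberg adjusted p under 0.05 over all genes tested. Time course libraries shared 1 fit, and each other comparison had its own. Shares were tested by 2-sided exact permutation. The fits were tested on simulated data. No replicates were copies of one another (chi-square of at least 3.43 per degree of freedom). Sequences, positions and lengths came from GENCODE M21 (GRCm38). Alternatives were DESeq2 1.42.0, other scalings, no filter, each library left out, a replicate block, and fits by day. All protein genes could be named, tRNA genes where a group mean reached 5 CPM, and of other lists up to 4 members with the smallest p and Polrmt, Tfam, Lrpprc and Ppargc1a. The members and lists were chosen with earlier results of these data known. Counts include PCR copies, which could not be removed.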

Additional observations from a re-analysis of the deposited data

How the results depend on the processing

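Of 26 results on single abundant genes past the threshold, 21 kept direction and call under every alternative and none changed direction; over 300 recomputed values 278 kept the call. Members called for DTR against WT at day 7 went from 0 to 1 (mt-Cytb) with no filter and with DESeq2, and for the interaction of genotype and day from 0 to 1 with no filter. From WT day 1 to day 3 the 1 member called became 0 by library size alone, 3 with no filter, 2 with the replicate block and 4 with DESeq2, and 0 to 3 with 1 library left out. For the other comparisons the count of members called stayed within 1.5 times under every alternative. The difference of mitochondrial shares between genotypes at day 14 (-0.299 percentage points) changed sign without WT replicate 2 (0.145; range -0.692 to 0.145), and that of satellite cells without WT replicate 3 (-0.0371; range -0.0371 to 0.263). The cause was not tested. Scaling by library size alone moved the median log2 change of all genes to 0.15 and -0.25 for the genotypes at days 1 and 7 and to 0.19 for rIL-17A, and DESeq2's size factors moved it to 0.15 from WT day 7 to day 14. No pairing by replicate number was seen: correlations of same-numbered libraries ran from -0.077 to 0.078. In 5 of 19 cases a library correlated best with its own number. Deviations from the mean of 2 or 3 libraries are tied to each other, so this check is weak and does not show that pairing was absent. With the replicate block mt-Nd5 had an adjusted p of 0.0648 for rIL-17A and of 0.051 from day 3 to day 7 (edgeR). tRNA genes rest on few counts, which limits what can be seen of them.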

Other observations

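Day 7 muscle was sampled in 2 experiments, which differ in treatment and cannot be compared by a test. A low share of mt-Nd5 was common to their muscle without rIL-17A. It was 3.45% and 4.27% of the mitochondrial counts in PBS muscle, 3.91% to 6.98% in WT and 3.62% and 4.14% in Tcrd-DTR muscle. The rIL-17A libraries did not have it, their mt-Nd5 shares lying above all of these. Other members differed in their shares. mt-Nd6 held 0.337% and 0.273% in PBS muscle and 0.984% to 1.23% in WT muscle, and mt-Nd2 held 1.21% and 0.828% against 2.28% to 2.40%. mt-Cytb held 29.5% and 28.4% in PBS muscle, nearer to the 27.2% and 27.6% of Tcrd-DTR than to the 16.8% to 21.7% of WT muscle.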
